A study of Rattus norvegicus with 4 samples.

Results

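The B lineage holds the white blood cells that mature from pre-B cells to B cells and end as antibody-secreting plasma cells. The genes described here are a list of 7 drawn up for it: Igll1, Cd79a, Cd79b, Ms4a1, Pou2af1, Fcrl2 and Jchain. Their probes were found by matching each probe's RefSeq accession to a gene symbol. Of the 7, 4 had a matching probe (Igll1, Cd79b, Pou2af1 and Fcrl2), out of 26633 genes and transcripts on the array. No accession led to Cd79a, Ms4a1 or Jchain, and these 3 were not analysed here. The list was chosen by the signals of Igll1, Pou2af1 and Fcrl2 on these same arrays, which were known when it was drawn up, so the values are given as descriptions.

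The tissue was soleus, a calf muscle rich in slow fibres, from male rats (Rattus norvegicus). Normal muscle and regenerated muscle were from animals aged 16 weeks, and the muscle labelled as hypertrophied, called overloaded here, and the regenerated overloaded muscle were from animals aged 18 weeks. Regenerated muscle was collected 8 weeks after an injection that the labels abbreviate as CTX without expanding it; for the regenerated overloaded group the labels give no time since injection, and for neither overloaded group do they say how load was raised. Each group was a pool of equal RNA amounts from 6 muscles on 1 single-colour Agilent array, so n = 1 throughout, no difference has a replicate check, and no p-value is given. The sample titles end in R for the normal and overloaded groups and in L for both regenerated groups; the labels do not expand these letters, and whatever they mark cannot be told apart from regeneration. Whether groups came from the same animals is not stated in the labels. The muscle label held: all 12 of 12 slow-fibre genes, among them Myh7 and Tnnt1, were well above background on all 4 arrays.

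A B cell recognises antigen with a surface immunoglobulin that signals through the paired chains encoded by Cd79a and Cd79b. In the pre-B cell, before a light chain gene has been rearranged, the product of Igll1 (the lambda-5 protein) stands in as part of a surrogate light chain. Pou2af1 encodes a coactivator that joins the factors Oct-1 and Oct-2 on the octamer element of immunoglobulin promoters and is needed for germinal centres. Ms4a1 encodes the B cell surface protein CD20, and Jchain the chain that links IgM and IgA units in plasma cells. Fcrl2 encodes a member of the Fc receptor-like family, and in the rat RefSeq also lists it under the names Fcrls and Msr2. In mice, Fcrls is known as a gene of microglia and other macrophages. Whether rat Fcrl2 belongs on a B-lineage list is therefore uncertain, and which cells gave its signal was not tested. Resting skeletal muscle holds few B cells.

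The promoter of Igll1 is shown because Igll1 and the coactivator gene Pou2af1 had like profiles over the arrays; it runs from 250 bases before to 50 bases after the gene's start and was taken from RefSeq on build GRCr8, chr11:97642937-97643236, plus strand, with capitals marking the only match to the letters searched.
Igll1 promoter: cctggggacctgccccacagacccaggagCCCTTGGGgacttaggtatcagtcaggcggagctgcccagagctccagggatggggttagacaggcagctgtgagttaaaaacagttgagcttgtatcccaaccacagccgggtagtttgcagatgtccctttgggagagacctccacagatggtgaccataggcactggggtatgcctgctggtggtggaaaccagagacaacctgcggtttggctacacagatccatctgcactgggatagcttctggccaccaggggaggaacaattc
Both strands were searched for the octamer ATGCAAAT and for CCCNNGGG, the core letters of the element bound by the early B cell factor Ebf1. The capitals are a match to CCCNNGGG, which 12.4% of the 33469 promoters in the table also hold. The octamer letters are not in this window; 1.78% of all promoters hold them.

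Signals are given as processed signals, the background-subtracted fluorescence of a spot in intensity units. Fewer spots cleared background on the normal array (60.4%) than on the others (68.1% to 70.6%). The dimmest spot that the scanner software still called well above background read 27.7 in normal, 16.3 in regenerated, 15.6 in overloaded and 18.6 in regenerated overloaded muscle, so a dim gene needed a higher signal to be called in normal muscle. For comparisons each signal was divided by the 75th percentile of its array. A gene above background on 1 of 2 arrays is given as an at-least fold. The other side is the lowest signal well above background on the other array, or the gene's own signal there where that is higher. The latter held for Syk (31.6) and Zap70 (29.2) in normal muscle. Errors are technical, from repeated spots on the same array.

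Igll1 (probe A_64_P062275) was brightest in regenerated muscle. Its spots read 14.3 and 12.5 in normal muscle, 97.5 and 111 in regenerated muscle, 25.3 and 28.0 in overloaded muscle, and 33.5 and 28.4 in regenerated overloaded muscle. Both spots in normal muscle were not well above background, and the spots of regenerated muscle did not overlap with those of any other array. Igll1 was at least 3.36-fold higher in regenerated than in normal muscle (log2 difference at least 1.75). In regenerated overloaded muscle it was 3.60-fold lower than in regenerated muscle (log2 difference -1.85, technical SE 0.27), and single pairs of spots gave between 3.11-fold and 4.16-fold. Between both overloaded groups it differed by 1.20-fold (log2 difference 0.26, technical SE 0.45). Overloaded against normal muscle gave no fold, since the overloaded signal was under the lowest level detectable on the normal array. Igll1 resembles the immunoglobulin lambda light chain genes in sequence, and whether the probe also binds their transcripts was not tested.

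Pou2af1 had 3 probes, and only its brightest one was detected. On that probe, A_43_P14436, the spots read 12.3 and 11.0 in normal muscle, 89.0 and 92.7 in regenerated muscle, 43.0 and 30.8 in overloaded muscle, and 33.4 and 36.3 in regenerated overloaded muscle. As for Igll1, the regenerated array stood above the rest without overlap and the normal array was not above background. Pou2af1 was at least 2.94-fold higher in regenerated than in normal muscle and 2.79-fold lower in regenerated overloaded than in regenerated muscle (log2 difference -1.48, technical SE 0.27). Overloaded muscle was at least 1.07-fold above normal muscle, and both overloaded groups differed by 1.01-fold. The other 2 probes of Pou2af1 gave between 4.93 and 15.4 (means over spots) and were not above background on any array. With the mean over all 3 probes the difference between regenerated overloaded and regenerated muscle was -0.72 on the log2 scale, and regenerated against normal muscle gave no fold.

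Both values depended on the background correction. With normexp, a model-based correction with an added offset that draws dim signals together, followed by quantile normalization, the difference between regenerated overloaded and regenerated muscle shrank to -0.86 for Igll1 and -0.60 for Pou2af1, both under 2-fold. Regenerated against normal muscle then gave lower bounds of 1.13 for Igll1 and 0.92 for Pou2af1 on the log2 scale, so a difference of 2-fold was no longer shown for Pou2af1.

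Cd79b (probe A_43_P15598), the signalling partner of the B cell receptor, was not above background on any array by the rule that most of a probe's spots must be. Its spots read 7.28 and 6.88 in normal muscle, 46.3 and 4.03 in regenerated muscle, 14.2 and 16.0 in overloaded muscle, and 11.4 and 4.77 in regenerated overloaded muscle. A single spot in regenerated muscle was well above background while its duplicate was among the dimmest, so no fold is given.

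Fcrl2 (probe A_64_P105477) was high in both overloaded groups. Its spots read 109 and 96.6 in normal muscle, 107 and 107 in regenerated muscle, 464 and 404 in overloaded muscle, and 536 and 537 in regenerated overloaded muscle. All spots were well above background, and those of both overloaded groups lay above those of both other groups without overlap. Fcrl2 was 3.42-fold higher in overloaded than in normal muscle (log2 difference 1.77, technical SE 0.15) and 4.71-fold higher in regenerated overloaded than in regenerated muscle (log2 difference 2.24, technical SE 0.096). Normal and regenerated muscle differed by 1.08-fold (log2 difference -0.11, technical SE 0.17; 0.02 on the authors' scaling). Regenerated overloaded muscle was 1.28-fold above overloaded muscle. The difference with overload was larger by 0.46 on the log2 scale (technical SE 0.18) in regenerated muscle, a difference that was not tested. Both overloaded groups were also older and lay in another row of the slide, which cannot be told apart from load.

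**Figure D1:**
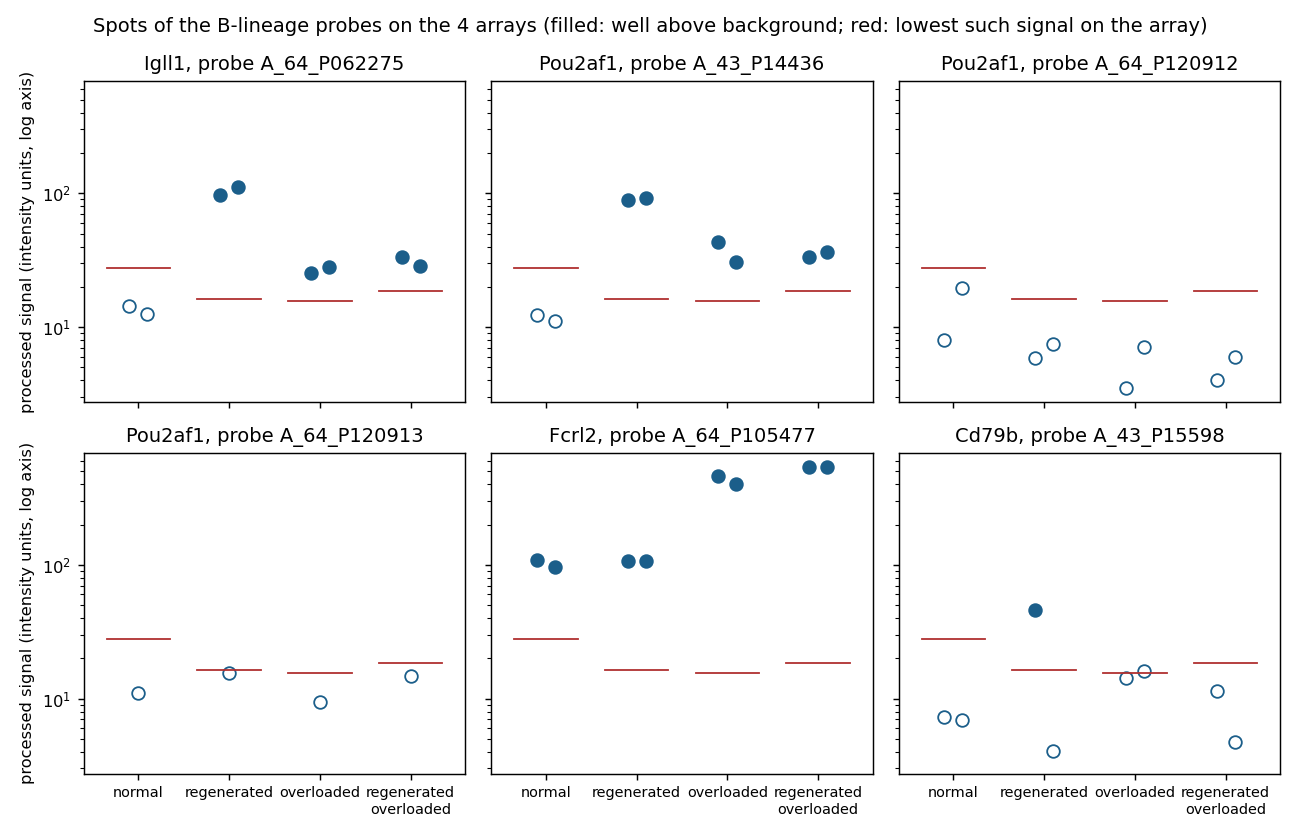
Processed signal (intensity units, log axis) of every spot of the list's matched probes on the 4 arrays. Each point is 1 spot, filled where well above background, and the red line marks the dimmest spot still called well above background there. Igll1 and the first Pou2af1 probe are highest in regenerated muscle (97.5 and 111, and 89.0 and 92.7), Fcrl2 is highest in both overloaded groups (404 to 537), and the remaining probes lie at background apart from a single Cd79b spot at 46.3.

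Read against all genes, in regenerated over normal muscle 2 of the 3 measured genes of the list were 2-fold or more higher, Igll1 and Pou2af1, and none was lower, where of 16911 genes and transcripts 1.27% were higher and 0.662% lower (1.93% in all). In overloaded over normal muscle 1 of 3 was higher, Fcrl2, and none was lower, where of 17308 genes and transcripts 2.46% were higher and 0.74% lower (3.2% in all). In regenerated overloaded over regenerated muscle 1 was higher and 2 were lower, where of 17208 genes and transcripts 1.55% were higher and 0.447% lower (1.99% in all). Between both overloaded groups 0 of 3 passed 2-fold in either direction, where of 17493 genes and transcripts 1.02% were higher and 0.692% lower (1.71% in all). The values of all 4 arrays were known when the list was made, so these counts describe it and nothing more.

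Igll1 and Pou2af1 were each other's nearest neighbour. Likeness was measured as the Euclidean distance between log2 levels centred on their mean over the 4 arrays. Levels under the array's lowest level above background were raised to it. A gene not above background but over that level, such as Ppl or Mrap in normal muscle, kept its own level. Among the 1012 other named genes that, like them, were above background on all arrays but the normal one, Pou2af1 was the closest to Igll1 (distance 0.48) and the only one within 0.5, 0.0988% of them. Next to Igll1 came Acvr1c, a receptor of the activin family (0.69), and Ppl, the cell-junction protein periplakin (0.78). Next to Pou2af1 came Ppl (0.61) and Mrap, an accessory protein of melanocortin receptors (0.63). The comparison among genes undetected in normal muscle was set up after the values had been seen. Igll1 and Pou2af1 were themselves listed for their signals on these arrays, and in normal muscle they took the same raised level. Their likeness and its share therefore describe the choice of genes and support nothing further.

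The genes nearest to Fcrl2 were kallikreins, secreted serine proteases. Of 9128 other named genes above background on all 4 arrays, 5 (0.0548%) lay within 0.5, and the closest were Klk1 (0.44), Klk1c3 (0.46) and Klk1c8 (0.46), near-identical genes whose probes may not be specific to 1 of them. Klk1 read 318, 354, 1422 and 1224 in normal, regenerated, overloaded and regenerated overloaded muscle. None of the 12 macrophage and dendritic cell genes above background on all 4 arrays lay within 0.5 of Fcrl2, nor did any of 10 such B cell surface and signalling genes or 5 such T cell genes. At a share of 0.0548% of all genes, lists this small would hold none almost always. These zeros therefore tell nothing about the cells that gave the Fcrl2 signal. The distances describe 4 arrays and carry no test.

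**Figure D2:**
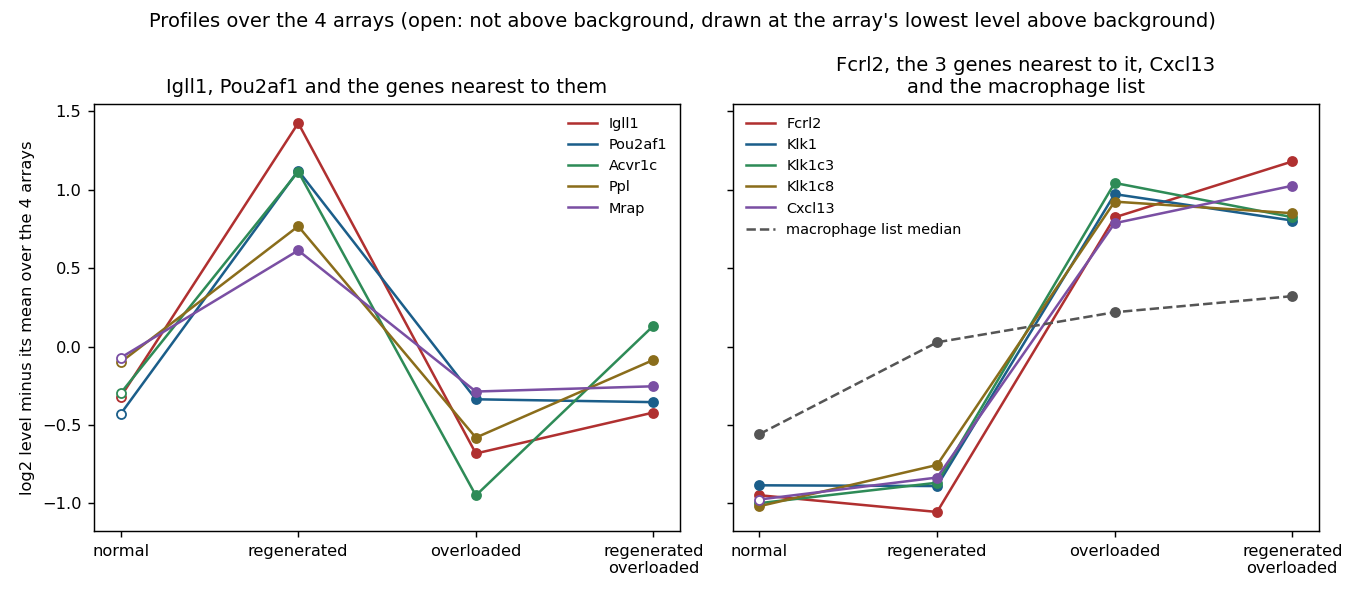
log2 level minus its mean over the 4 arrays, for Igll1, Pou2af1 and their nearest genes (left) and for Fcrl2, its nearest genes, Cxcl13 and the median of the macrophage list (right, dashed). Open points are not above background. They are drawn at the array's lowest level above it, or at the gene's own level where that is higher (Ppl and Mrap). The left-hand genes peak in regenerated muscle, and the right-hand genes apart from the macrophage median are low in normal and regenerated muscle and high in both overloaded groups.

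Detection of other B-lineage markers was mixed. Of 30 matched B cell surface and signalling genes, 16 were above background on at least 1 array and 14 on none, among them Cd22, Cd72, Cr2, Fcer2, Cxcr5, Blk and Bank1, which define mature B cells. The recombination genes Rag1, Rag2 and Dntt of pre-B cells were also above background on none. Of the 9 matched genes of the pre-B list, 5 were above background in regenerated muscle, and 0 passed 2-fold in any comparison. Vpreb3, a relative of the surrogate light chain genes, read 34.9, 33.0, 25.2 and 19.8 from 1 spot per array in normal, regenerated, overloaded and regenerated overloaded muscle, the last not above background. Mme and Cd93, which are also expressed outside the B lineage, were above background on all 4 arrays, Ung on 3 and the interleukin-7 receptor gene Il7r on 2. No probe matched the fixed names of the immunoglobulin heavy and light chains. The surface and signalling genes brightest on these arrays, Cd81, Ptpn6, Fcmr and Fcgr2b, were above background on all 4, and Cd81, Ptpn6 and Fcgr2b are shared with other cell types. Fcmr, the IgM Fc receptor gene, read 790, 1091, 1175 and 1011. Also above background were Fcrla and Cd40 on all 4 arrays, and Cd37, Btk and Plcg2 on 3. In the same order of arrays Fcrla read 124, 115, 88.3 and 85.3, and Cd40 read 108, 151, 191 and 192. The surface and signalling list summed to 8.30, 10.1, 10.7 and 10.9 times the 75th percentile in normal, regenerated, overloaded and regenerated overloaded muscle. Of its measured genes, 0 of 15 passed 2-fold in regenerated over normal muscle and 2 of 16 were higher in overloaded over normal muscle. In each of the remaining comparisons 0 of 16 passed. Of all genes 1.71% to 3.2% passed in a comparison, so lists this small would often hold none. These zeros, and those of the lists below, therefore tell little. Ly86, the partner of the B cell and myeloid receptor CD180, read 107 in normal and 282 in overloaded muscle, 2.13-fold higher. Syk, a kinase downstream of Cd79a and Cd79b and of many other immune receptors, was at least 2.15-fold higher on its brightest probe, with a sign that turned when its 3 probes were averaged (-0.84). With normexp Ly86 was under 2-fold (0.71), and the lower bound for Syk was 0.42 (0.98 with quantile normalization), so 2-fold was not shown there. Where above background on both arrays, the list's median log2 difference was 0.31, 0.28, 0.14 and 0.03 in the comparisons in the order given above, against -0.11, -0.12, -0.02 and -0.01 for all genes.

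Among B-lineage transcription factors, Spib, an Ets factor of B cells and plasmacytoid dendritic cells, was high in both overloaded groups. Its 10 spots averaged 8.37 in normal, 16.3 in regenerated, 59.3 in overloaded and 43.7 in regenerated overloaded muscle, and it was above background in both overloaded groups alone. Spib was at least 2.51-fold higher in regenerated overloaded than in regenerated muscle and at least 1.74-fold higher in overloaded than in normal muscle, and with normexp the lower bound of the first was 0.35 on the log2 scale. It was the only 1 of 12 measured factors past 2-fold with overload of regenerated muscle, and none of 10, 13 and 14 passed in the other comparisons. Pax5, the factor that commits cells to the B lineage, read 651, 522, 652 and 539 from 1 spot per array, well above background on each. Bcl6, Xbp1 and Bcl11a, also expressed outside the B lineage, were above background on all 4 arrays. The plasma cell factor Irf4 was above background on no array.

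No measured plasma cell gene passed 2-fold in the direction of Igll1 and Pou2af1. Of these genes, 0 of 9 were higher in regenerated over normal muscle and 0 of 8 lower in regenerated overloaded over regenerated muscle. Of all genes 1.27% were higher and 0.447% lower there, so lists this small would mostly hold none. These zeros therefore tell little about plasma cells. Sdc1 read 473, 672, 770 and 1055 in normal, regenerated, overloaded and regenerated overloaded muscle. It was above background on all 4 arrays and passed 2-fold in no comparison. Tnfrsf17, the survival receptor BCMA of plasma cells, was the 1 of 9 measured genes that passed in regenerated and in overloaded against normal muscle, and it was lower: its single spot, which lay in the outer 16 rows, read 49.9 in normal muscle and 15.5, 4.29 and 4.97 on the others, none above background. Without spots in the outer rows it has no value, and with normexp the bounds nearest to 0 that its differences allow were -0.53 and -0.77 on the log2 scale. Mzb1, an endoplasmic reticulum protein of plasma and marginal zone B cells named here after its values were seen, read 38.5, 48.8, 32.7 and 27.5. Normal and regenerated muscle differed by 0.18 on the log2 scale (technical SE 0.35; -0.01 with normexp), within the technical error. The difference between regenerated overloaded and regenerated muscle was -0.92 (technical SE 0.29; -0.32 with normexp), under 2-fold. Of the more widely expressed secretory genes, Sec11c, Ssr4 and Pigr were above background on all arrays and passed 2-fold in no comparison. Pigr rests on probes of 1 spot each, and its probe of 2 spots was above background on no array (5.47 to 6.13). Derl3, on its brightest probe, read 26.8 (not above background), 56.6, 46.9 and 56.2 in normal, regenerated, overloaded and regenerated overloaded muscle. In that order Fkbp11 read 105, 186, 260 and 301, and neither gene passed 2-fold.

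Among factors that attract or sustain B cells, Cxcl13, the chemokine that draws B cells into follicles through Cxcr5, went the way of Fcrl2. Its signal was 16.6 in normal, 34.1 in regenerated, 116 in overloaded and 132 in regenerated overloaded muscle. Normal muscle was not above background. Cxcl13 was at least 3.39-fold higher in overloaded than in normal muscle and 3.64-fold higher in regenerated overloaded than in regenerated muscle (log2 difference 1.86, technical SE 0.23); with normexp the first had a lower bound of 0.9994 and the second was 0.88 on the log2 scale, under 2-fold. Its receptor gene Cxcr5 was above background on no array. Ltb, the lymphotoxin that maintains lymphoid tissue, was 2.03-fold higher in overloaded than in normal muscle (0.62 on the log2 scale with normexp and 0.94 with quantile normalization). Cxcl12, Ccl21 and Tnfsf13 passed 2-fold in no comparison. Of the 7 measured factors, 2 were thus higher in overloaded over normal muscle, 1 in regenerated overloaded over regenerated muscle, and 0 in the comparisons of regenerated with normal and of both overloaded groups.

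**Figure D3:**
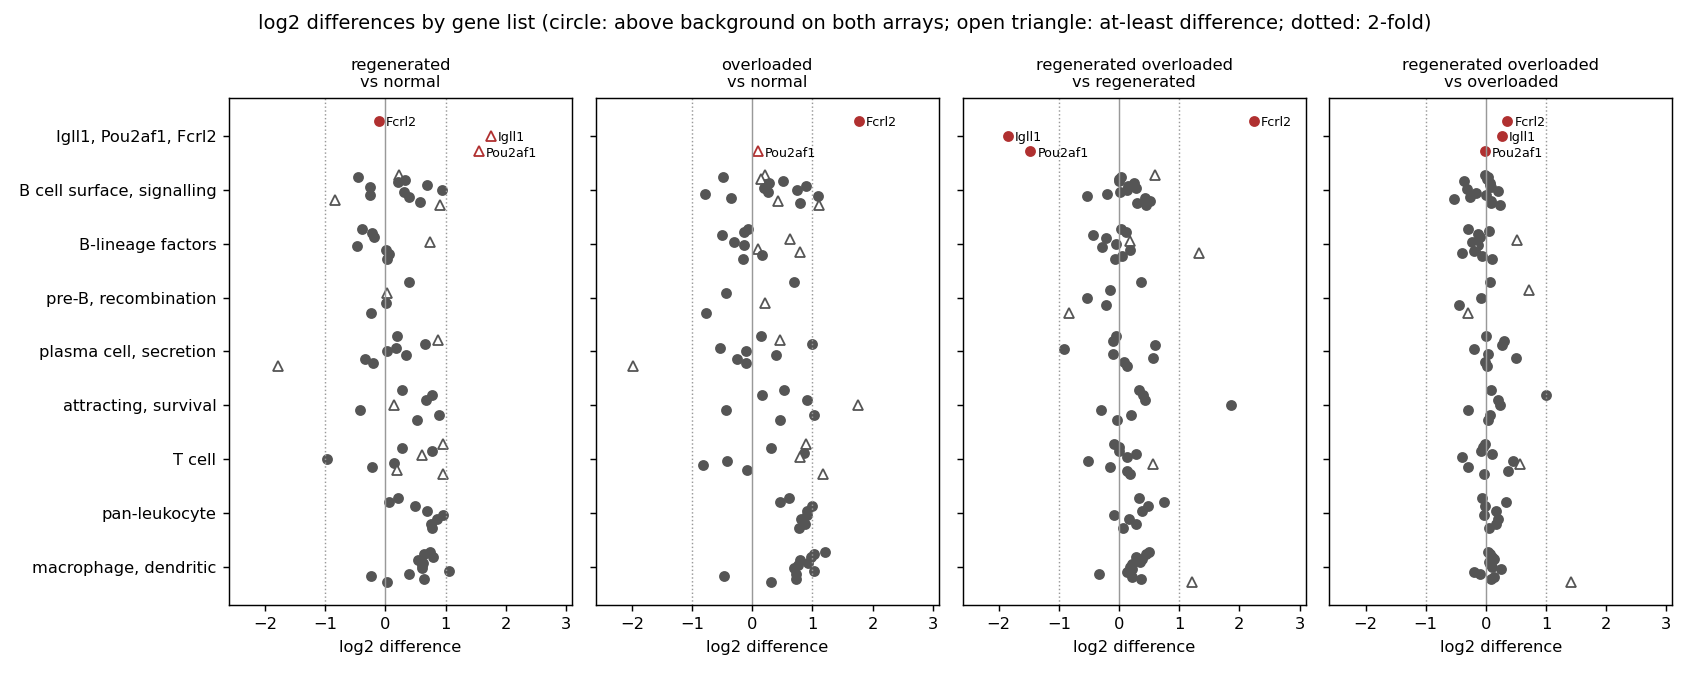
log2 differences of single genes by list in the 4 comparisons, with circles for genes above background on both arrays, open triangles for at-least differences and dotted lines at 2-fold. Igll1 and Pou2af1 lie beyond 2-fold to the right in regenerated over normal muscle and to the left in regenerated overloaded over regenerated muscle, Fcrl2 lies to the right in both comparisons with overload, and most other genes of the B-lineage lists lie between the dotted lines.

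Markers of other blood cells moved on these arrays as well. Of 13 matched macrophage and dendritic cell genes, 12 were above background on all 4 arrays, and their list summed to 52.5, 81.5, 91.4 and 99.2 times the 75th percentile in normal, regenerated, overloaded and regenerated overloaded muscle. Past 2-fold were Cd68 in regenerated over normal muscle (2.07-fold), Cd68, Adgre1 and Aif1 in overloaded over normal muscle (2.03-fold, 2.32-fold and 2.04-fold), and Xcr1, on 1 spot, in regenerated overloaded over regenerated and over overloaded muscle (at least 2.31-fold and 2.66-fold). With normexp Adgre1 (0.99) and Cd68 in overloaded muscle (0.96) were under 2-fold, as was Aif1 with the mean over probes (0.98). The lower bounds for Xcr1 with normexp were 0.41 and 0.36. The other probe of Xcr1, also of 1 spot, was above background on no array. It read 5.01 in regenerated overloaded muscle, against 40.2 on the probe used. The macrophage gene Adgre1 read 170, 320, 486 and 480. Between normal and regenerated muscle Adgre1 differed by 0.75 and Fcrl2 by -0.11 on the log2 scale, and neither passed 2-fold. In overloaded over normal muscle Adgre1 differed by 1.21 and Fcrl2 by 1.77, both past 2-fold. With overload of regenerated muscle Adgre1 differed by 0.49 and Fcrl2 by 2.24. In these comparisons, in that order, the median log2 difference of the macrophage and dendritic cell list was 0.62, 0.78 and 0.25. The pan-leukocyte list summed to 7.69, 12.9, 13.7 and 15.1, with 8 of 10 genes above background on each array, and the leukocyte phosphatase gene Ptprc read 160, 302, 360 and 390. Of 16 matched T cell genes, Cd3e, Cd2, Cd28, Lck, Trat1 and Bcl11b were above background on no array, and Zap70 alone passed 2-fold (at least 2.26-fold higher in overloaded than in normal muscle, with a lower bound of 0.38 on the log2 scale with normexp). Of 10 cytotoxic genes, Prf1 alone passed 2-fold, at least 2.17-fold higher in the same comparison (lower bounds of 0.42 with normexp and 0.93 with quantile normalization). The part of these cells in the values of Igll1, Pou2af1 and Fcrl2 was not tested, and in whole muscle fewer cells of a type and less RNA per cell cannot be told apart.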

How the data were processed

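Total RNA of rat soleus was labelled with Cy3 and hybridised to single-colour arrays, per the labels' protocols. The deposited scanner files hold a processed signal per spot as an intensity, background-subtracted and not scaled between arrays, with the median signal and local background intensities and flags for spots well above background or outlying. Per the file headers the software was Agilent Feature Extraction 11.5.1.1 (protocol GE1_1105_Oct12), whereas the submitters' processing notes give 10.10.1.1. The authors' series table is the processed intensity times 1 constant per array (2.14, 2.10, 1.95 and 2.02 in the order normal, regenerated, overloaded, regenerated overloaded; column medians 182, 212, 222 and 226); it is linear and not centred, and the basis of the constants is unknown.

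Spots marked as outliers (406 to 451 per array) were removed; none was saturated. Signals were divided by their array's 75th percentile, put on a log2 scale and averaged per probe. A probe was above background where most of its spots were. A gene with several probes was represented by its brightest one on average. By accession, 18643 of 30367 probes matched 15637 symbols of assembly GRCr8; the headers place the probes on build rn4, so no probe coordinates are given. Technical SEs pool the variance between spots over 20 bins of signal. The calculation was tested on simulated data. The members and lists were chosen with earlier results of these data known. The rule for named genes took the members, listed genes past 2-fold, at most 4 of the highest level per list, and the 3 nearest profiles of a member above background on all 4 arrays. Other genes in the text, such as undetected markers, the neighbours of Igll1 and Pou2af1, Ptprc, Mzb1 and Il7r, fall outside it and were chosen after their values were seen. Alternatives were other scalings, normexp (limma 3.58.1, offset 50), the mean over probes, other filters on dim probes and other sets of spots. Python 3.11.15 and numpy 2.4.6 were used.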

Additional observations from a re-analysis of the deposited data

Results flagged for a closer look

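Pou2af1 was flagged for a difference in direction with overload, of which the rise rests on a bound set by detection in normal muscle. Its log2 difference was at least 0.0939 for overloaded minus normal muscle, where normal muscle was not above background. With the undetected normal signal taken as measured it was 1.34 (technical SE 0.59), and the spots of both arrays did not overlap. A rise beyond the bound was therefore not shown. Only 7 of the alternatives gave a value for this comparison, and quantile normalization gave none. For regenerated overloaded minus regenerated muscle the difference was -1.48 (technical SE 0.27). With 1 array per group the difference between these effects was not tested.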

How the results depend on the processing

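No paired analysis was possible because each group has 1 array and the labels neither give replicate numbers nor tie the titles' R and L samples to the same animals; leaving out a replicate was not possible for the same reason. The number of arrays and, for Igll1, Pou2af1 and Cd79b, signals near background limit what can be said. The 2 listed genes past 2-fold in regenerated against normal muscle became 1 with normexp, where a lower bound dropped under 2-fold, 1 with the mean over probes and 0 where both arrays had to be above background; the 1 in overloaded against normal muscle became 2 without the filter on dim probes; and the 3 in regenerated overloaded against regenerated muscle became 1 with normexp. Fcrl2 stayed past 2-fold in the same direction under all 10 alternatives in both comparisons with overload (1.27 to 1.95 and 1.67 to 2.28 on the log2 scale). Igll1 stayed past 2-fold in 9 of 10 alternatives in regenerated overloaded against regenerated muscle and Pou2af1 in 8 of 10, both with the same sign in all 10. Syk turned to -0.84 in overloaded against normal muscle with the mean over probes. Counting a probe as above background from any of its spots, an alternative added after seeing the data, changed no count of the listed genes.

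Over all genes, the counts past 2-fold were 327 in regenerated against normal, 554 in overloaded against normal, 343 in regenerated overloaded against regenerated and 300 in regenerated overloaded against overloaded muscle. In that order they were 113, 220, 102 and 58 with normexp, 2209, 5698, 1460 and 1438 without the filter on dim probes, and 193, 347, 184 and 128 without probes printed once. With both arrays above background they were 199, 227 and 144 in the comparisons other than overloaded against normal. The authors' scaling moved the median of all genes from -0.11 to 0.02 and from -0.12 to 0.05 in the comparisons with normal muscle, and the split of higher and lower genes from 215 and 112 to 332 and 91 and from 426 and 128 to 720 and 82. The cause of these changes was not tested.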
